A study of Mus musculus with 38 samples.

Results

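LAP2B CUT&RUN in mouse embryonic stem cells that lack all lamins (TKO, with Lmna, Lmnb1 and Lmnb2 knocked out) was compared between naive pluripotency and the primed, epiblast-like state. The members are the 6 TKO LAP2B libraries, 3 from naive mES cells and 3 from EpiLCs, of 38 samples in the series and of 36 with values in the gene and transposable element (TE) tables. Naive cells were kept in medium with 2i and LIF, EpiLCs were grown in N2B27 with FGF and Activin A, and both were harvested after 48 h, with 200000 cells for each replicate. The 6 WT and the 6 QKO LAP2B libraries of the same stages are used for comparison, as are WT libraries made with an antibody to lamin B1 (LMNB1) or with an IgG control (IGG), 3 for each stage. No IGG library of TKO or QKO cells was analysed here, so WT IGG stands in as background for them. WT cells are a littermate line with lamins and LBR, and QKO cells lack the lamins and LBR and are a single clone made from the TKO line, so every TKO library still has LBR.

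The TKO cells are 1 line. Per the study's methods they carry trisomy 8, a part of them has lost chromosome Y, and a part of the WT cells also carries extra chromosomes or lacks chromosome Y. The labels do not say that replicates came from separate cultures, so p-values measure the spread between these libraries. The assay reads genomic DNA cut beside an antibody, not transcripts, so neither the labelled stage nor the knockouts were checked by the levels of marker genes. Fewer cells with a contact and less contact in each cell cannot be told apart in these bulk samples.

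The nuclear lamina is a meshwork of A-type and B-type lamins under the inner nuclear membrane, and the long stretches of chromatin that touch it are called lamina-associated domains. Such domains are mostly gene poor and silent, and LBR, an inner membrane protein that binds both B-type lamins and heterochromatin, tethers them in parallel with the lamins. LAP2B, the membrane-bound product of Tmpo, marks the nuclear periphery without being a lamin. In WT EpiLCs, per the study, LAP2B signal lay both inside and outside the domains seen with lamin B1. The authors therefore did not use LAP2B in mutant EpiLCs as a stand-in for such domains. A lower LAP2B value in EpiLCs below need not mean less contact with the periphery. Naive cells express factors such as Nanog, Klf4 and Zfp42, and on priming with FGF and Activin A most naive factors are switched off while genes such as Fgf5 and Dnmt3b are switched on.

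Each gene value is the sum of LAP2B coverage in all 1 kb bins touched by the gene, scaled by the authors to yeast spike-in DNA (the spike-in scale). A relative value is that sum divided by the value of the median gene of the same library, which removes the total level. Differences were tested on the relative scale, as log2(relative value + 0.1), with limma over 70381 genes, and a gene is said to have risen or fallen where its Benjamini-Hochberg adjusted p was under 0.05. The reads behind the 6 TKO libraries came to between 12608484 and 33084955 when summed over genes and bins, with naive replicate 2 the shallowest. Lmnb1, one of the targeted genes, had relative values of 11.0, 8.66 and 10.2 in naive and 8.38, 9.22 and 8.78 in EpiLC TKO libraries, and such sums over a whole gene do not show whether exons are missing.

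The excess of LAP2B coverage at lamina-contacting genes over other genes was smaller in TKO EpiLCs than in naive TKO cells. To follow the same genes at both stages, genes were ranked by LMNB1 coverage per bin in naive WT cells and cut into 4 equal classes. The log2 ratio of mean LAP2B coverage per bin in the class with most LMNB1 to that in the class with least, called the lamina contrast, was 0.800, 0.501 and 0.839 in the naive TKO libraries. In TKO EpiLCs it was -0.024, -0.033 and -0.0028. By this ranking the naive libraries all held more coverage at lamina-contacting genes, the EpiLC libraries were near 0, and the groups did not overlap (0.713 ± 0.185 against -0.0199 ± 0.0154, SD, n = 3 each, exact two-sided permutation p = 0.1, the smallest that 3 against 3 can give). Where each group lay depended on the ranking, while all EpiLC libraries lay below all naive ones under each ranking and scaling tried. With genes ranked by EpiLC LMNB1 the TKO contrast went from 0.860 ± 0.146 to 0.312 ± 0.0289, and IGG stood at 0.449 and 0.262. Without division by bins it went from 0.878 ± 0.208 to 0.192 ± 0.0477. With genes ranked by naive LMNB1 over IGG the naive TKO libraries were at 0.103, -0.207 and 0.105 and the EpiLC mean at -0.585 ± 0.0592. The contrast in WT LAP2B libraries went from 1.68 ± 0.288 to 0.696 ± 0.202, a decrease in the same direction from a higher start (exact permutation p = 0.1). In QKO cells it went up from -0.724 ± 0.0933 to -0.257 ± 0.042 (exact permutation p = 0.1). The IGG libraries stood at 0.274 ± 0.201 in naive and -0.0679 ± 0.0407 in EpiLC WT cells, against -0.0199 in TKO EpiLCs and 0.713 in naive TKO cells.

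**Figure D1:**
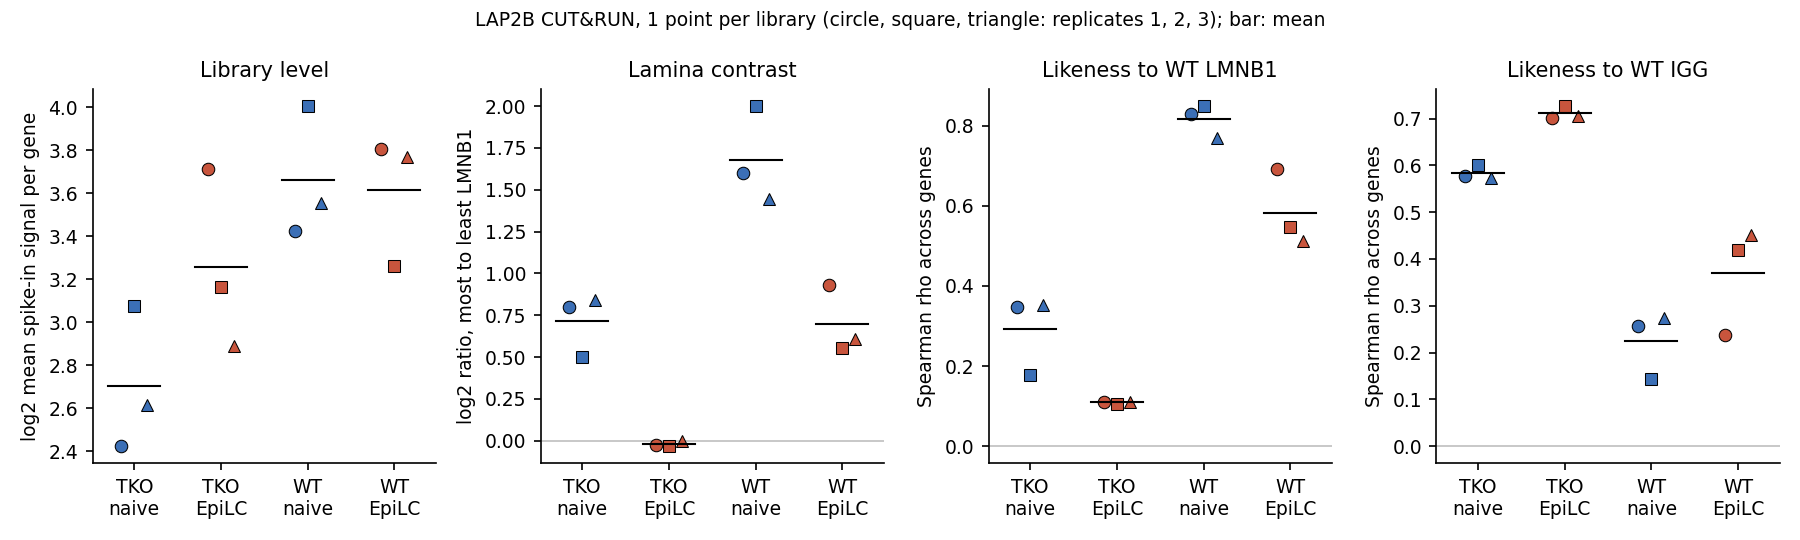
The 4 panels plot the library level (log2 mean spike-in value), the lamina contrast (log2 ratio) and Spearman's rho with WT LMNB1 and with WT IGG for each TKO and WT LAP2B library, naive and EpiLC, with 1 point for each library and a bar at the group mean. The 3 TKO EpiLC libraries sit at a lamina contrast near 0 (-0.033 to -0.0028), below all 3 naive TKO libraries (0.501 to 0.839), while their log2 levels overlap.

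Rank correlations across genes gave the same separation, with TKO EpiLC libraries less like LMNB1 and more like IGG than naive ones. Spearman's rho between LAP2B per bin and mean WT LMNB1 of the same stage was 0.348, 0.177 and 0.353 in naive TKO libraries and 0.111, 0.105 and 0.111 in EpiLC libraries (difference -0.184, exact permutation p = 0.1). In WT LAP2B libraries the mean rho with LMNB1 also went down, from 0.82 to 0.58 (difference -0.23, exact permutation p = 0.1). In QKO libraries it went up, from -0.25 to -0.0048 (exact permutation p = 0.1). Without division by the number of bins the TKO difference was 0.034 in the opposite direction. Spearman's rho with mean WT IGG went from 0.578, 0.601 and 0.573 to 0.70, 0.727 and 0.706 in TKO (difference 0.127, no overlap, exact permutation p = 0.1), against 0.225 to 0.369 for the means of WT LAP2B. The QKO means went from 0.59 to 0.74, a difference of 0.15. Naive replicate 2, the shallowest library, was the naive library nearest to the EpiLC libraries in contrast and in rho. Its part in the results was not tested beyond leaving it out, and without it and without each other TKO library the difference in contrast was between -0.839 and -0.670.

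The total level gave no such separation. The log2 mean spike-in value over genes was 2.42, 3.08 and 2.62 in naive and 3.71, 3.17 and 2.89 in EpiLC TKO libraries. The highest naive library lay above the lowest EpiLC library, and the difference of 0.55 had an exact permutation p of 0.2. WT LAP2B levels differed by -0.048 between the same stages, and QKO levels by 0.47. WT IGG levels went up as well, from 1.19 ± 0.318 in naive to 2.16 ± 0.739 in EpiLC libraries. WT EpiLC IGG replicate 2, at 3.00, lay above TKO EpiLC replicate 3. The part of background in the TKO difference was not tested. On the spike-in scale 23784 genes rose (33.8% of those tested) and 586 fell (0.833%), with a median log2 difference of 0.53, but only 5976 were called when the fit held the TKO libraries alone. In the fit with the other genotypes kept, the calls in both directions came to 9279 without TKO EpiLC replicate 1. They came to 10905 without TKO naive replicate 1 and 14043 without TKO naive replicate 3, so the results below are on the relative scale.

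On the relative scale 9302 genes rose (13.2% of those tested) and 7544 fell (10.7%) from naive to EpiLC in TKO cells, around a median log2 difference of 0.05. The count test edgeR, run on the whole reads recovered from the values, called 6920 higher (9.83%) and 9164 lower (13.0%), so that the share of calls that rose went from 55.2% to 43.0%. Among all genes, the 3 EpiLC libraries lay above the 3 naive ones for 20.8% and below them for 16.8%. Long genes were called more often, from 8.08% of genes that touch 1 bin to 54.5% of those that touch over 100. Over the same range the share risen went from 2.59% to 32.6% and the share fallen from 5.48% to 21.9%. The gene lists below were not matched for length, so their shares set against all genes may also differ through length.

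Genes with the least LMNB1 in naive WT cells mostly had higher relative LAP2B in TKO EpiLCs, and those with the most had lower. In the class with least LMNB1 the median log2 difference was 0.31, 27.3% of its 17578 genes rose and 1.70% fell. The next 2 classes had medians of 0.16 and -0.0053. In the class with most LMNB1 the median was -0.27, 1.07% rose and 25.5% fell. Read over the median relative values, the first class went from between 0.801 and 0.903 in the naive libraries to between 1.06 and 1.08 in the EpiLC libraries, so all EpiLC libraries lay above all naive ones. WT LAP2B had the same order with a steeper slope, from 0.42 to -0.47, and QKO the reverse order, from -0.12 to 0.31. IGG went from 0.11 to -0.20 over the 4 classes, and its part in the TKO slope was not tested. On the spike-in scale all 4 TKO medians were above 0, from 0.80 in the class with least LMNB1 to 0.21 in that with most.

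**Figure D2:**
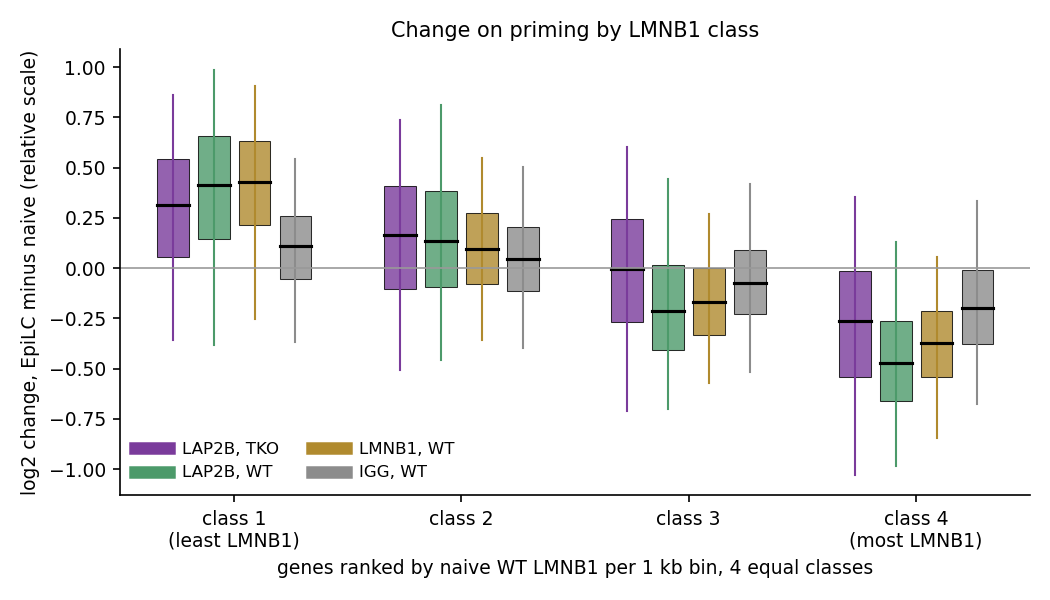
The vertical axis is the log2 difference from naive to EpiLC on the relative scale and the horizontal axis holds 4 equal classes of genes ranked by LMNB1 coverage per bin in naive WT cells, least to most, for LAP2B in TKO and WT cells and for LMNB1 and IGG in WT cells. Boxes span the middle 50% of genes, lines the 5th to 95th percentile and the black bar is the median, which goes from 0.31 to -0.27 in TKO and from 0.42 to -0.47 in WT LAP2B, while the LMNB1 boxes rest on the libraries that ranked the genes.

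Chromosome X stood lowest among the chromosomes. Its 2118 genes had a median log2 difference of -0.25 in TKO, with 23.2% fallen and 1.18% risen. Of these genes 3.54% were in the class with most LMNB1, but the lines are XY per the study, so X genes are present in a single copy, and the classes were not corrected for copy number. In WT the median was -0.23 and in IGG -0.07. Chromosome 19 had the highest median (0.19) and chromosome 11 the next (0.18). Chromosome 8, of which TKO cells carry an extra copy, was at 0.09. Chromosome Y was at -0.06 in TKO and at -0.40 in WT, and a changed share of cells that lack it cannot be told apart from a change in contact.

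Differences were also read along the genome. Over 2192 windows of 1 Mb with at least 10 tested genes, median log2 differences in TKO ran from -0.98 to 0.86. The lowest was chr17:93000001-94000000 (GRCm39), which holds Adcyap1, the gene of a neuropeptide, with 11 of 15 genes fallen. The highest was chr7:135000001-136000000, with Foxi2, Clrn3, Ptpre and Mki67, where 23 of 32 genes rose and the WT median was -0.01. Across windows Pearson's r of the TKO with the WT difference was 0.67, given as a description because windows share libraries within each genotype and genes within a window share bins.

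The clearest gene group was the set of naive pluripotency factors, which mostly had lower relative LAP2B in TKO EpiLCs than in naive TKO cells. Of 15 listed genes 12 fell and none rose, against 10.7% and 13.2% of all genes, with a median log2 difference of -0.66 against 0.05 over all genes. The median relative value over the list was 4.25, 3.5 and 4.51 in the naive TKO libraries and 2.94, 3.11 and 3.01 in the EpiLC libraries, so that all 3 EpiLC libraries were lower. In WT cells 1 of the same genes fell and 2 rose, against 17.1% and 15.3% over all genes, and the median was 0.03. In QKO cells 13 fell, against 18.7% over all genes. In IGG libraries, where 0.0753% of all genes rose and 0.423% fell, none was called by limma, with a median of -0.16. On the spike-in scale none of the 15 was called in TKO and their median was -0.13, against 0.53 over all genes. Of the 15 genes, 3 were in the class with most LMNB1 in naive WT cells and 3 in that with least.

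Zfp42 (Rex1, ENSMUSG00000051176, chr8:43743871-43760152, minus strand), a zinc finger gene used as a reporter of the naive state, had relative values of 7.63, 6.72 and 7.94 in naive and 3.86, 3.5 and 3.87 in EpiLC TKO libraries. All EpiLC libraries lay far below the naive ones (log2 difference -0.97, SE 0.13, adjusted p = 2.01e-07). In WT libraries it was at 3.68, 3.41 and 4.25 in naive and at 3.95, 4.06 and 3.34 in EpiLC cells, which overlap, and the difference between the genotypes passed the test (-0.97, adjusted p = 0.000637). WT IGG means were 3.25 and 3.00, and all naive TKO libraries were above them. The IGG libraries used are all of WT cells, and TKO cells carry an extra copy of chromosome 8, where Zfp42 lies, so levels in TKO and in IGG are not like for like. The window around Zfp42, chr8:43000001-44000000, which also holds Triml1, Triml2 and Adam26b, had a median of -0.87 in TKO and of -0.46 in WT.

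Tfcp2l1, a transcription factor that sustains naive self-renewal (ENSMUSG00000026380, chr1:118555636-118612915), was at 20.7, 15.9 and 20.0 in naive and 10.4, 9.86 and 9.53 in EpiLC TKO libraries. The groups did not overlap (log2 difference -0.91, SE 0.11, adjusted p = 4.14e-09), and WT libraries stayed between 8.98 and 10 at both stages. Nanog, the homeodomain factor of the naive network (ENSMUSG00000012396, chr6:122679780-122691601), went from 4.25, 3.5 and 4.51 to 2.26, 2.46 and 2.31, again without overlap (-0.77, SE 0.15, adjusted p = 9.06e-05). In WT Nanog differed by -0.29 (adjusted p = 0.135), and its difference between genotypes did not pass (adjusted p = 0.139). Dppa5a, an RNA-binding protein of naive cells, went from 1.09, 1.14 and 0.952 to 0.50, 0.461 and 0.456 (-1.02, SE 0.25, adjusted p = 0.00175).

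Of the other naive genes, Klf5 fell by 0.82, Dppa3 by 0.85, Prdm14 by 0.66 and Nr5a2 by 0.50 on the log2 scale. Klf5 and Nr5a2 encode transcription factors of the naive network, Dppa3 a maternal factor that guards DNA methylation in the early embryo, and Prdm14 a repressor of FGF receptor signalling and DNA methyltransferases. These 4 and the 4 genes above stayed called in each fit without 1 TKO library. Klf2, Nr0b1, Esrrb and Fgf4 (-0.63, -0.67, -0.27 and -0.39) passed with all 6 libraries but not in 5, 4, 5 and 2 of the 6 such fits. Klf2 was at -0.40 (adjusted p = 0.266) without EpiLC replicate 3, Nr0b1 at -0.47 (adjusted p = 0.25) without naive replicate 3, Esrrb at -0.21 (adjusted p = 0.122) without naive replicate 2 and Fgf4 at -0.35 (adjusted p = 0.0858) without EpiLC replicate 2. The count of falls in these fits was between 8, without EpiLC replicate 2, and 11. Klf4 differed by -0.42 (adjusted p = 0.171), Tbx3 by -0.15 and Tcl1 by -0.07, none of which passed. The difference between TKO and WT passed for 7 of the 15, all lower in TKO, namely Dppa5a, Klf2, Zfp42, Tfcp2l1, Klf5, Prdm14 and Esrrb, against 5.29% higher and 4.12% lower among all genes. With libraries centred on their mean gene it passed for 12. For Prdm14 it was lost in 6 of 12 fits without 1 library, with -0.55 (adjusted p = 0.0889) without WT naive replicate 3, and for Klf5 in 3, with -0.71 (adjusted p = 0.0570) without TKO EpiLC replicate 3.

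**Figure D3:**
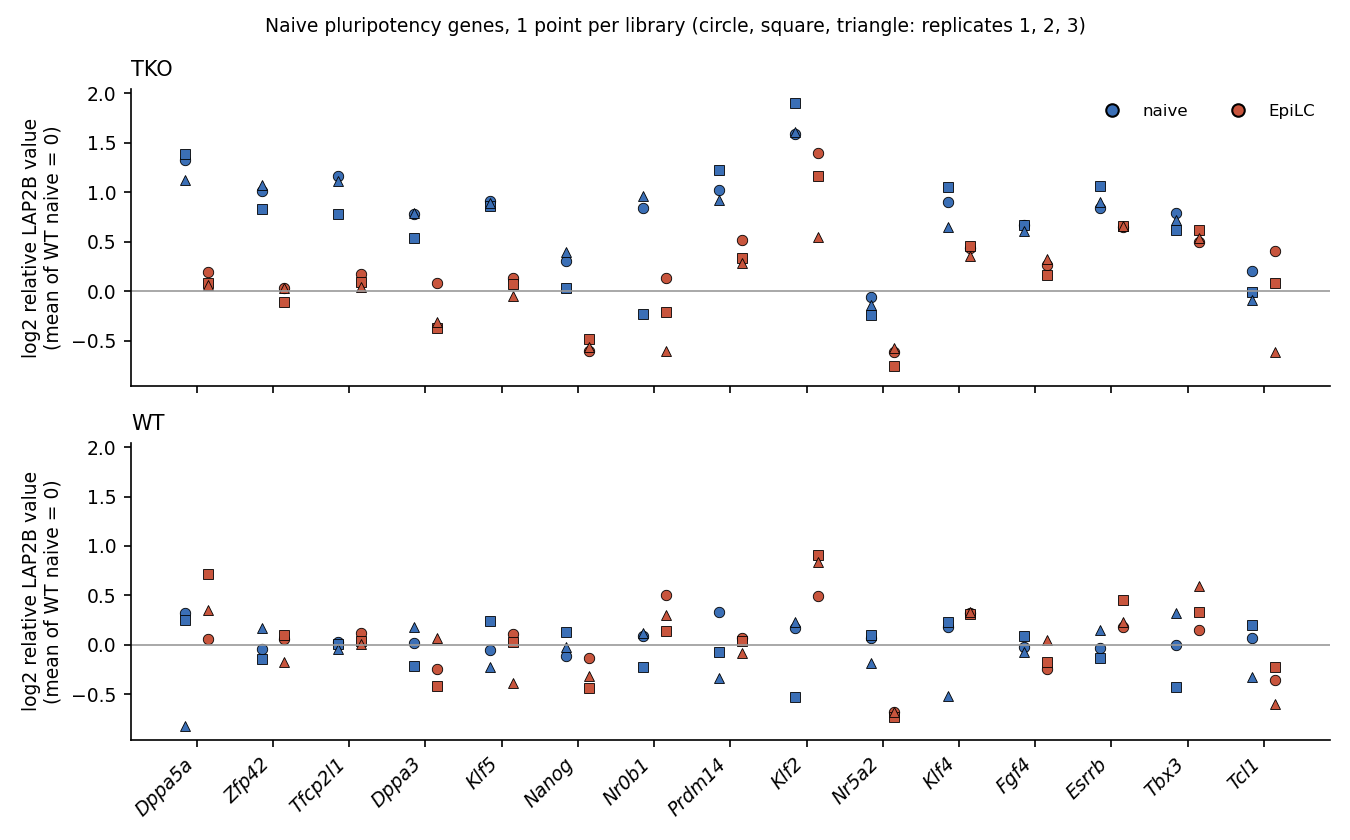
Each point is the log2 relative LAP2B value of a naive pluripotency gene in 1 library, set to 0 at the mean of the naive WT libraries, for TKO above and WT below, with naive libraries in blue and EpiLC libraries in red. For Zfp42, Tfcp2l1, Nanog and Dppa5a the 3 TKO EpiLC points lie below the 3 TKO naive points, while the WT groups of Zfp42 overlap.

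Of 16 genes of FGF and ERK signalling 1 rose and 4 fell in TKO cells, against 13.2% risen and 10.7% fallen over all genes. The falls of 2 feedback inhibitors, Dusp6 and Spry2, held in every fit without 1 TKO library. Dusp6, which encodes an ERK phosphatase that is induced by ERK itself (ENSMUSG00000019960, chr10:99086564-99103361), had relative values of 3.61, 2.44 and 3.00 in naive and 1.07, 0.809 and 0.848 in EpiLC TKO libraries. No EpiLC library came near a naive one (log2 difference -1.62, SE 0.20, adjusted p = 1.94e-08), and of the genes of its list Dusp6 alone also fell on the spike-in scale (-1.11, adjusted p = 0.00228). WT values were 1.21, 1.25 and 0.954 in naive and 1.19, 0.764 and 0.871 in EpiLC cells, and the genotypes differed (-1.35, adjusted p = 0.00148). Spry2, another induced inhibitor of the pathway, went from 3.40, 2.52 and 3.40 to 1.38, 1.42 and 1.14 (-1.18, SE 0.19, adjusted p = 2.84e-06). The median over the list was -0.09. In WT 9 rose and 2 fell, where the shares over all genes were 15.3% and 17.1%. The genotype difference passed for 8, all lower in TKO, against 5.29% higher and 4.12% lower over all genes. The remaining calls in TKO were lost in some fits without 1 library. Egr1, an immediate early gene of the pathway, went from -0.63 to -0.45 (adjusted p = 0.189) without EpiLC replicate 1. Sos1, which activates Ras, went from -0.33 to -0.28 (adjusted p = 0.0910) without naive replicate 1, and the ligand gene Fgf2 from 0.31 to 0.24 (adjusted p = 0.177) without EpiLC replicate 2.

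Of 18 primed epiblast genes 4 rose and 4 fell, with a median of -0.03, against 13.2% risen and 10.7% fallen over all genes. Fgf5, the growth factor gene switched on by priming (ENSMUSG00000029337, chr5:98401780-98452320), went from 2.50, 2.68 and 2.67 to 4.20, 4.24 and 4.23, with all EpiLC libraries above all naive ones (0.67, SE 0.15, adjusted p = 0.000606). WT libraries already stood between 4.19 and 5.05 in the naive state, IGG means were 3.28 and 4.10, and the genotype difference (0.63, adjusted p = 0.0471) was lost with libraries centred on their mean gene and in 11 of 12 fits without 1 library, with 0.59 (adjusted p = 0.102) without WT naive replicate 2. Dnmt3b, the de novo DNA methyltransferase of the epiblast, went from 3.99, 4.22 and 3.87 to 6.09, 6.25 and 5.89 (0.58, SE 0.12, adjusted p = 0.0003). Grhl2, a factor that opens epithelial enhancers on priming, rose by 0.53 and Lef1, a nuclear effector of Wnt signalling, by 0.34. Zic2, a zinc finger factor, was called with all libraries (-0.50) and not without naive replicate 3 (-0.29, adjusted p = 0.356) or 4 of the others. Etv5, an ERK-induced factor, and Cdh2, N-cadherin, were called too (-0.38 and -0.25) and not without naive replicate 1 (-0.32, adjusted p = 0.0501, and -0.21, adjusted p = 0.157). Otx2 and Pou3f1, which lead the primed programme, differed by -0.05 and 0.61 and did not pass.

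Core pluripotency genes, which both states express, gave 1 rise and 2 falls among 7 tested, against 13.2% risen and 10.7% fallen over all genes. The rise was that of Lin28a (0.48), an RNA-binding protein, which did not pass without EpiLC replicate 2 (0.43, adjusted p = 0.0686) or without naive replicate 2. The falls were Dppa2 (-1.03, SE 0.15, adjusted p = 7.61e-07) and its neighbour Dppa4 (-0.70), a pair of chromatin factors on chromosome 16. Dppa2 was at 7.59, 4.80 and 6.98 in naive and 2.99, 2.86 and 3.31 in EpiLC TKO libraries, with no overlap. Pou5f1 (Oct4) overlapped between stages, at 2.31, 1.62 and 2.60 against 1.93, 2.21 and 1.76 (-0.12, adjusted p = 0.740).

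Genes of the primitive endoderm, the sister lineage of the epiblast, gave 6 rises and 1 fall among 13, with a median of 0.36, against 13.2% risen and 10.7% fallen over all genes, and 4 of the rises held in every fit without 1 library. Col4a1, a basement membrane collagen (ENSMUSG00000031502, chr8:11248423-11362826), went from 14.6, 18.8 and 15.9 to 28.6, 30.9 and 28.8 (0.84, SE 0.11, adjusted p = 1.14e-07). Gata4, a master regulator of the lineage, went from 6.56, 9.66 and 7.68 to 13.1, 13.4 and 14.2 (0.78, SE 0.12, adjusted p = 1.28e-06). Both were separated between stages, and both also rose in WT (0.51 and 0.66). Over the whole list in WT 3 rose and 6 fell, with a median of -0.15, against 15.3% risen and 17.1% fallen over all genes. The genotype difference passed for 2 of the 13, higher in TKO, against 5.29% higher and 4.12% lower over all genes. WT IGG means of Col4a1 were 23.8 and 27.2, above the naive TKO values. Sox17, the endoderm factor in the class with most LMNB1, went the other way, from 3.27, 4.18 and 4.63 to 1.40, 1.59 and 1.70 (-1.30, SE 0.19, adjusted p = 5.25e-07). Hnf4a rose by 0.56, and Fgfr2 by 0.46 over an annotated span of 2963 bins that takes in neighbouring genes. Pdgfra, a growth factor receptor of this lineage, passed with all 6 libraries (0.46) but not without naive replicate 3 (0.38, adjusted p = 0.0677).

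Markers of other fates gave 3 rises and 1 fall among 20, which is near or below the 13.2% risen and 10.7% fallen over all genes. T (Brachyury), the mesoderm factor, went from 0.753, 1.32 and 0.774 to 2.06, 1.61 and 1.79, without overlap (0.91, SE 0.21, adjusted p = 0.00103), and it was the call of this list that held in every fit without 1 library. In WT T differed by -0.15, and the genotype difference of 1.06 (adjusted p = 0.0181) was lost with libraries centred on their mean gene and in 4 of 12 such fits, with 0.93 (adjusted p = 0.0558) without TKO naive replicate 1. Wnt5a and Wnt3, ligands of the Wnt family, and the eye and neural factor Pax6 passed with all libraries (0.60, 0.44 and -0.47). Without naive replicate 3 Wnt5a was at 0.44 (adjusted p = 0.0799) and Wnt3 at 0.33 (adjusted p = 0.0957), and without naive replicate 1 Pax6 was at -0.31 (adjusted p = 0.0957). In the Activin and Nodal list 5 of 16 rose and none fell, against the same shares, with a median of 0.16, but edgeR called 1 higher and 1 lower. Smad3, a receptor-activated transducer of this pathway, went from 14.2, 18.5 and 14.4 to 22.9, 20.1 and 20.8 (0.44, SE 0.10, adjusted p = 0.00114), and of the 5 it was the 1 that held in every fit without 1 TKO library.

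Among 17 germline genes that pluripotent cells silence by DNA methylation on priming 8 rose and 1 fell, with a median of 0.30, against 13.2% risen and 10.7% fallen over all genes. In WT 4 of the 17 rose and 3 fell, with a median of 0.16, against 15.3% risen and 17.1% fallen over all genes. In QKO 10 rose and 1 fell, against 23.3% and 18.7%. In TKO 6 rose by edgeR, and 5 of the 8 rises held in every fit without 1 library. Tdrd1, a piRNA pathway scaffold (ENSMUSG00000025081, chr19:56814641-56858444), went from 3.53, 4.66 and 3.43 to 6.78, 7.70 and 7.14, with clear separation (0.89, SE 0.15, adjusted p = 1.03e-05) and a like rise in WT (0.78). Mael, Stk31, Piwil2 and Ddx4, all germline proteins, rose by 0.63, 0.60, 0.60 and 0.56. Without naive replicate 3 the count of rises was 5, and without any other TKO library it was 6 or 7. Morc1, which is needed for transposon silencing in male germ cells and lies in the class with most LMNB1, fell from 59.0, 46.8 and 57.9 to 27.0, 28.9 and 30.2 (-0.92, SE 0.10, adjusted p = 4.37e-10).

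Genes of H3K9 methylation gave 2 rises and 4 falls among 22, with a median of -0.14, and 10 rises and 4 falls in WT. The shares over all genes were 13.2% risen and 10.7% fallen in TKO and 15.3% and 17.1% in WT, and 3 of the 4 TKO falls held in every fit without 1 library. Trim28 (KAP1), the corepressor through which KRAB zinc finger proteins silence transposons (ENSMUSG00000005566, chr7:12733041-12764976), was at 16.1, 12.7 and 13.8 in naive and 7.85, 8.42 and 7.34 in EpiLC TKO libraries. The groups did not overlap (-0.84, SE 0.12, adjusted p = 8.15e-07), WT libraries lay between 5.20 and 7.27 at both stages, and the genotype difference passed (-0.98, adjusted p = 0.000261). Kdm4c, an H3K9 demethylase, went from 56.2, 40.9 and 53.4 to 26.3, 25.9 and 25.6 (-0.94, SE 0.11, adjusted p = 7.09e-09), nearly as in WT (-0.99). Atf7ip, a partner of the methyltransferase SETDB1, fell by 0.48. Uhrf1, which recruits DNA methylation upkeep, and the methyltransferase gene Ehmt1 passed with all libraries (-0.43 and 0.24) and not without EpiLC replicate 3 (-0.31, adjusted p = 0.183, and 0.20, adjusted p = 0.181). Zfp644 went from 0.32 to 0.16 (adjusted p = 0.317) without naive replicate 2.

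Among 19 nuclear envelope genes none rose and 3 fell, against 13.2% and 10.7% over all genes, and 1 of the falls, that of Tpr, held in every fit without 1 library. Tpr, a basket protein of the nuclear pore, went from 15.6, 10.4 and 14.2 to 6.62, 9.01 and 8.61 (-0.71, SE 0.12, adjusted p = 1.45e-05). Tmpo, which encodes LAP2B, differed by -0.40 (adjusted p = 0.00765) and did not pass without naive replicate 3 (-0.32, adjusted p = 0.0818). The call on Lmna rested on 1 library. Its values were 29.6, 8.60 and 7.70 in naive and 6.83, 7.65 and 7.46 in EpiLC TKO libraries, and the log2 difference went from -0.77 (adjusted p = 0.0133) to -0.15 (adjusted p = 0.631) without naive replicate 1. It did not pass without EpiLC replicate 1 either. Lbr, the tether that TKO cells retain, was at 5.41, 3.90 and 4.70 and then at 4.74, 5.53 and 5.11, which overlap (0.14, adjusted p = 0.488).

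Of 22 imprinted genes 8 rose and 4 fell in TKO, against 13.2% and 10.7% over all genes. In WT 6 of them rose and 3 fell, against 15.3% and 17.1% over all genes. In TKO 6 of the rises and 2 of the falls held in every fit without 1 library, and edgeR called 6 higher and 5 lower. The largest rise was that of H19, the maternally expressed non-coding RNA, from 0.474, 0.560 and 0.381 to 1.05, 0.887 and 1.27 (1.03, SE 0.24, adjusted p = 0.00117), and its neighbour Igf2, a fetal growth factor, rose by 0.72. The largest fall was that of Grb10, a growth-restricting adaptor, from 31.8, 26.1 and 29.9 to 17.9, 17.4 and 18.3 (-0.71, SE 0.09, adjusted p = 1.01e-07). Very long neuronal genes, of which 17 of 21 are in the class with most LMNB1, gave 1 rise and 11 falls in TKO, 20 falls in WT and 19 rises in QKO. Over all genes 17.1% fell in WT and 23.3% rose in QKO. The 11 TKO falls were between -0.58 and -0.30, among them Kcnip4 (-0.58), a potassium channel partner, and Csmd3 (-0.30), and 6 of them held in every fit without 1 library.

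Several gene families in silent clusters were also counted, to be read against all genes, of which 13.2% rose and 10.7% fell in TKO and 15.3% rose and 17.1% fell in WT. The genotype difference was higher in TKO for 5.29% of all genes and lower for 4.12%. With libraries centred on their mean gene it was higher for 1165 of 70381 and lower for 6098. Olfactory receptor genes gave 32 rises and 84 falls among 983 tested in TKO, and 7 rises and 252 falls in WT. The TKO shares of olfactory receptor genes called lay below those over all genes in both directions. Neither these nor the other families were matched to all genes by length. The difference itself passed for 21 of them, 19 higher and 2 lower in TKO, and for 9 higher and 4 lower with libraries centred on their mean gene. Vmn2r pheromone receptor genes gave 23 falls among 113 in TKO and 70 in WT, immunoglobulin variable segments 54 falls among 319 in TKO and 118 in WT, and Pramel genes 10 falls among 54 in TKO and 33 in WT. Zinc finger genes of the Zfp900 series gave 26 falls among 42 in TKO with a median of -0.49, and 18 falls in WT. The difference between genotypes passed for 2 of the Vmn2r, 1 of the immunoglobulin and 5 of the Pramel genes, all higher in TKO, but with libraries centred on their mean gene it passed for 3, 2 and 2 of them, all lower in TKO, so no direction is given. It passed for 8 of the Zfp900 series, and for 15 with libraries centred on their mean gene, all lower in TKO. Members of such clusters have close copies, so reads may be split between them. Hox genes gave 8 rises among 39 (26 in WT) and ribosomal protein genes 8 among 82 (42 in WT), the latter a TKO share below that over all genes, and the difference passed for 4 and 9 of them, all lower in TKO. Clustered protocadherins gave 22 falls among 58 in TKO and 20 rises in WT, and the difference passed for 22, all lower in TKO. Those genes share most of their bins, and the count of falls was 8 without EpiLC replicate 2, 11 without EpiLC replicate 3 and 11 without naive replicate 1.

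**Figure D4:**
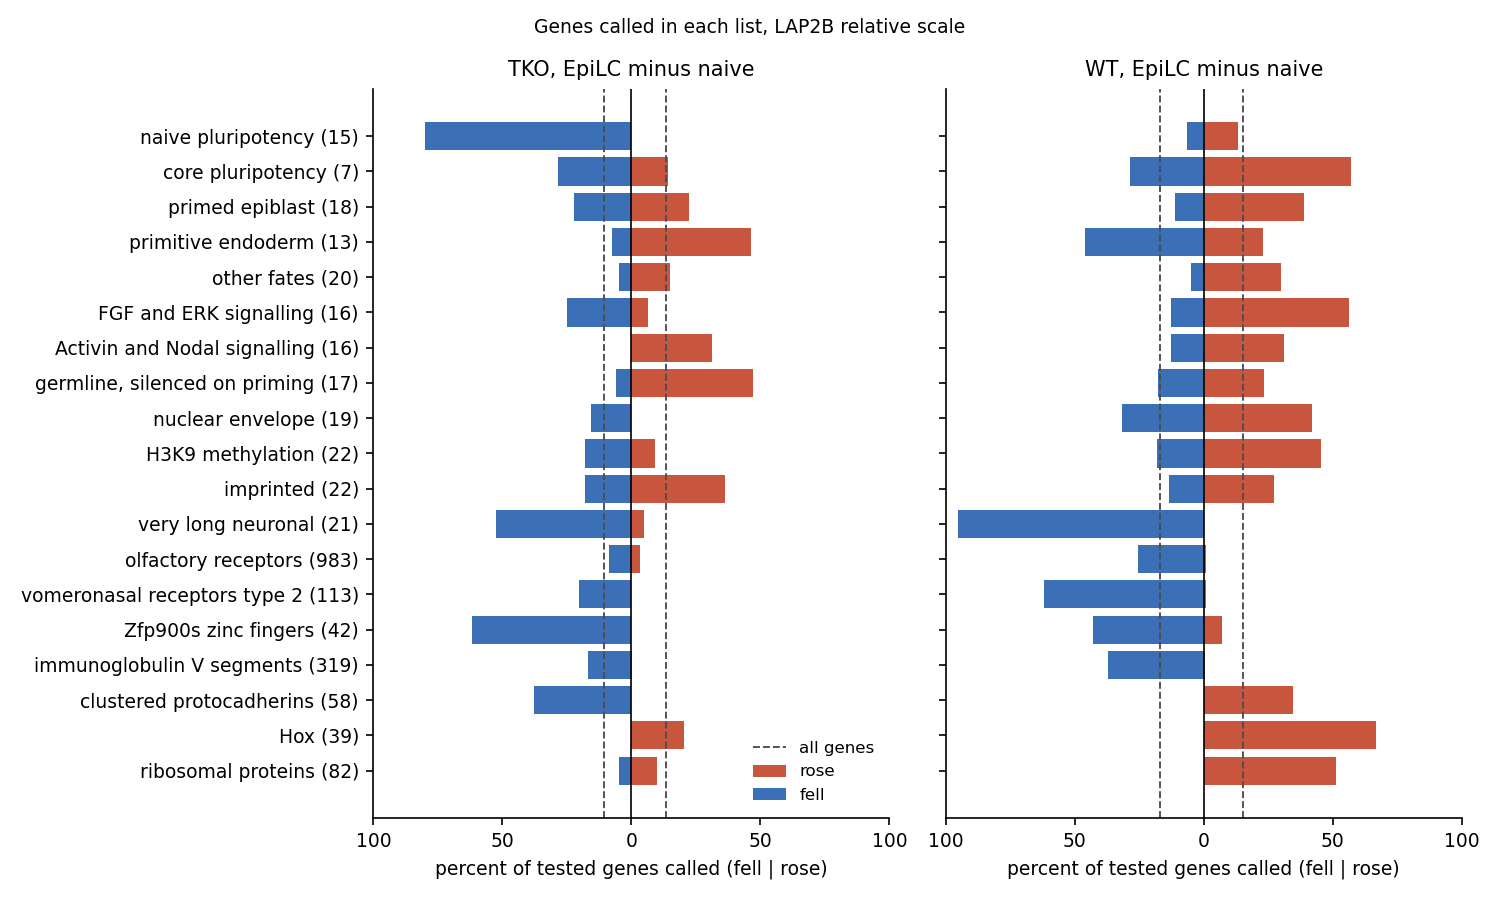
Bars give the percent of tested genes of each list that rose (to the right) or fell (to the left) from naive to EpiLC on the relative scale, in TKO and in WT cells, with the number tested beside each name and dashed lines at the percent over all genes. In TKO the naive pluripotency bar reaches furthest to the left, at 12 of 15 genes, against 10.7% of all genes, and in WT 1 of the 15 fell.

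The largest falls outside these families included Tet2, which encodes a dioxygenase that oxidises 5-methylcytosine (ENSMUSG00000040943, chr3:133169436-133250900). It was at 42.4, 29.0 and 38.7 in naive and 13.1, 12.3 and 11.8 in EpiLC TKO libraries, a wide separation (-1.54, SE 0.11, adjusted p = 2.41e-15), and it fell in WT too (-1.07) and in IGG (-0.50, adjusted p = 0.03). The others named by the same rule were Tceanc (-1.75), Spaca6, Dusp6, Glrx, Tmem64, Atp5pf, Armcx4, Klf8 and Vegfd (-1.47). Of these 10, 4 lie on chromosome X (Tceanc, Armcx4, Klf8 and Vegfd), 7 in the class with most LMNB1, and all 10 fell on the spike-in scale. Spaca6, a sperm protein needed for fusion with the egg, went from 13.5, 11.9 and 13.2 to 3.81, 4.05 and 3.68. Glrx encodes a glutaredoxin, Atp5pf a subunit of ATP synthase and Vegfd a lymphatic growth factor.

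The largest rises included Gjb6 and Irx5. Gjb6, a gap junction protein (ENSMUSG00000040055, chr14:57360757-57371087), went from 0.794, 0.980 and 1.21 to 2.59, 2.16 and 2.37 (1.19, SE 0.19, adjusted p = 3.16e-06). Irx5, a homeobox factor, went from 2.43, 2.32 and 2.79 to 5.97, 5.45 and 5.17 (1.11, SE 0.14, adjusted p = 3.07e-08). The groups of both genes were well apart, and both rose in WT as well (0.58 and 0.60). The rule also named Spata31f1d (1.32), Nms, which encodes the neuropeptide neuromedin S (1.24), Ankra2, Mul1, a mitochondrial ubiquitin ligase, Rer1, Pnliprp1, Krt20, an intestinal keratin, and Asphd2 (1.04). All 10 were in the 2 classes with least LMNB1.

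TKO and WT cells shared many calls although they share no library. Of the 9302 genes that rose in TKO, 3421 (36.8%) also rose in WT, where they were 31.9% of the rises, and 397 (4.27%) fell. Of the 7544 that fell in TKO, 4234 (56.1%) also fell in WT, where they were 35.1% of the falls, and 212 (2.81%) rose. WT calls were 10734 rises (15.3%) and 12054 falls (17.1%). Across genes Pearson's r of the TKO difference was 0.45 with WT LAP2B, 0.48 with WT LMNB1 and 0.30 with WT IGG (n = 70381 genes, which are not replicates).

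The stage difference itself was higher in TKO than in WT for 3720 genes and lower for 2903. With each library centred on its mean gene instead of its median gene these counts were 1165 and 6098, and the median of the genotype difference moved from 0.09 to -0.11. Of the genes whose genotype difference is given singly, 8 were lost with that centring, namely Krt20, Fgf5, T, Mael, Zfp644, Ehmt1, Igf2r and Airn, all higher in TKO. The calls came to 3858 in all without TKO EpiLC replicate 3, 4232 without WT EpiLC replicate 3 and 4248 without WT naive replicate 2. Genes that differed upwards were Gp2, Ces1b, Spmip5, Plekha1 and Usp31 (1.39 to 1.30). Ces1b, a liver carboxylesterase, was at 2.56, 1.98 and 2.63 in naive and 5.19, 4.96 and 5.17 in EpiLC TKO libraries, while WT had 5.96, 6.09 and 5.91 in naive and 5.09, 5.17 and 4.53 in EpiLC cells. Naive TKO was the group that stood apart, and the EpiLC ranges of both genotypes overlapped. Genes that differed downwards were Anxa9, Rbbp7, Tmem91, Hsd17b14 and Ulk1 (-1.56 to -1.38). Rbbp7, a histone chaperone subunit of several repressor complexes, was at 4.16, 3.62 and 4.51 and then at 1.60, 2.23 and 1.85 in TKO, against 1.83, 1.46 and 1.54 and then 2.53, 2.14 and 1.54 in WT. Ulk1, a kinase that starts autophagy, was at 7.83, 9.82 and 7.05 and then 6.22, 6.03 and 4.83 in TKO, and rose in WT (0.86).

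Against QKO cells, a single clone that lacks LBR as well, the stage difference was higher in TKO for 9141 genes (13.0%) and lower for 9764 (13.9%). Directions against QKO are given here for centring on the median gene only. QKO itself had 16372 rises (23.3%) and 13153 falls (18.7%). Among the 15 naive pluripotency genes there were 12 falls in TKO and 13 in QKO, and the difference passed for 5, all higher in TKO. Among the 21 very long neuronal genes there were 11 falls in TKO and 19 rises in QKO.

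Among 1241 TE families, described by the mean over their copies divided by the median family of the library, 192 rose (15.5%) and 382 fell (30.8%) in TKO. Centred on the median gene of each library instead, 34 rose (2.74%) and 235 fell (18.9%). On the spike-in scale 375 of the 1241 rose and 2 fell in TKO, with a median log2 difference of 0.45. Those spike-in calls came to between 4 and 1037 in fits without 1 library, so the counts below are on the relative scale. LTR elements, remnants and relatives of retroviruses, held most falls, with 320 falls and 47 rises among 630 families. RLTR13 gave 22 falls among 23 families and RLTR9 and RLTR17 15 among 17 (18 and 13 when centred on genes), IAP elements 19 among 25 and families named ERVB, ETnERV or RLTRETN, most of them ERVB, 20 among 25, with no rise in any of the 4 groups. On the spike-in scale the TKO medians of these groups were all above 0, at 0.16, 0.20, 0.29 and 0.27. In WT, where 14.2% of all families rose and 12.6% fell, the same groups gave 14, 7, 2 and 5 falls. In the same order the genotype difference passed for 11, 14, 7 and 17 families, all lower in TKO. Centred on the median gene it was higher for 3, 2, 5 and 4 and lower for 3, 1, 0 and 1. No direction between genotypes is therefore given for these groups.

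RLTR13B2, with 312 copies, had the largest fall, from relative values of 4.47, 3.5 and 4.07 to 1.44 in all 3 EpiLC libraries (-1.41, SE 0.07, adjusted p = 2.3e-10). In WT it went from a mean of 2.40 to one of 1.57, and WT IGG means were 1.89 and 1.41, close to the TKO EpiLC value. In QKO it also fell (-1.13), from a mean of 3.27 in naive libraries, whose highest value of 3.59 lay above naive TKO replicate 2, to one of 1.43. All 3 naive TKO libraries lay above the WT and IGG means. RLTR13D6 went from 4.03, 3.09 and 3.81 to 1.68, 1.73 and 1.62 and RLTR9E from 2.76, 2.29 and 2.72 to 1.31, 1.29 and 1.20, both without overlap. The others of the 10 largest falls among families of at least 100 copies were RLTR9D, RLTR13E, RLTR9D2, LTRIS2, RLTR13D4, RLTR13B1 and ERVB2_1A-I_MM. On the spike-in scale only RLTR13B2 (-0.89, adjusted p = 0.0075) and RLTR13D6 (-0.55, adjusted p = 0.0492) of the 10 passed in limma. The genotype difference passed for all 10, lower in TKO, and was lost for RLTR9D, RLTR9D2, RLTR13D4 and RLTR13B1 when libraries were centred on genes.

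Over all families the genotype difference was higher in TKO for 25 (2.01%) and lower for 200 (16.1%) when centred on the median family, but higher for 842 and lower for 10 when centred on the median gene, so no direction is given for the families as a whole. SINE elements, the short repeats of gene-rich DNA, gave 1 rise and 1 fall among 34 in TKO and 32 rises in WT, where over all families 15.5% rose and 30.8% fell in TKO and 14.2% rose in WT. The genotype difference passed for 11 SINE families, all lower in TKO, when centred on the median family. Centred on the median gene it passed for 19, all higher, so no direction is given for them either. Old L1 families (L1M) gave 33 rises among 60 in TKO, of which 1 passed when centred on genes. The largest rise was that of Tigger17d (0.80, SE 0.21, adjusted p = 0.00487), a DNA transposon of 273 copies, from 41.4, 24.6 and 31.8 to 70.7, 51.7 and 46.5. Its WT IGG means also went from 26 to 48.1. The other 9 rises named by the rule, which took called families of at least 100 copies, were between 0.18 and 0.23. Smaller families were not ranked, and some of them rose more, such as EuthAT-N1 with 16 copies (0.35).

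**Figure D5:**
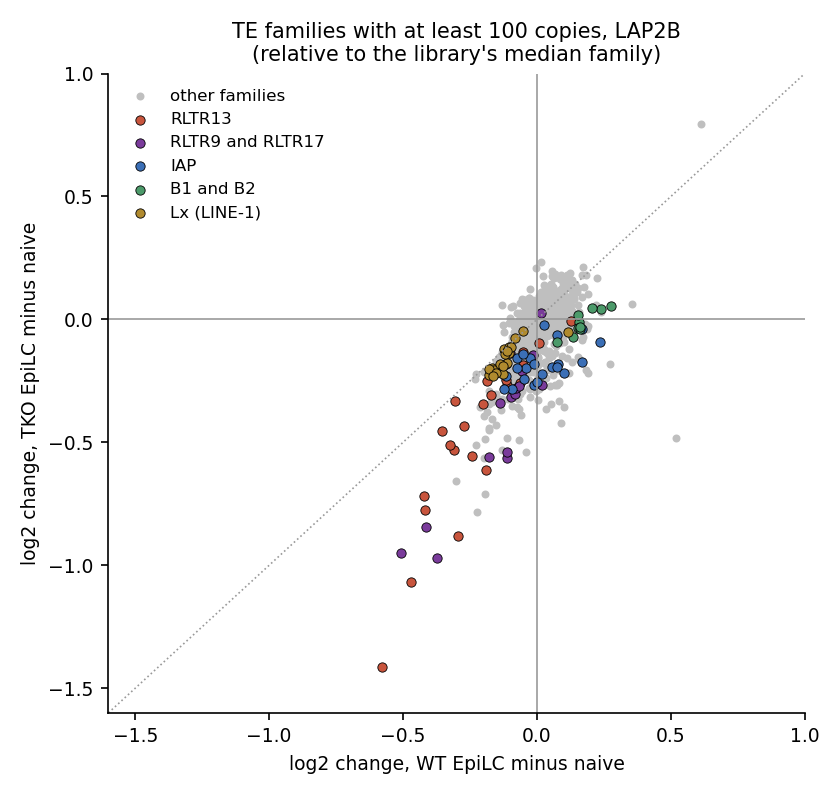
Each point is a TE family of at least 100 copies, with the log2 difference from naive to EpiLC in WT on the horizontal and in TKO on the vertical axis, both relative to the median family of the library, and with RLTR13, RLTR9 and RLTR17, IAP, B1 and B2 and Lx families in colour. RLTR13B2 is the lowest in TKO (-1.41, against -0.58 in WT), below the dotted line of equal differences.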

How the data were processed

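The authors mapped their paired reads with Bowtie2 2.3.5.1, according to the methods, to GRCm39 and to yeast (sacCer3) for the spike-in, filtered them with SAMtools 1.10, and made coverage with deepTools as RPKM in bins. The deposited signal is that coverage times a spike-in factor, summed over the 1 kb bins a gene or TE copy touches and not divided by length. The methods name 10 kb bins for TEs, while the values read as 1 kb. Among the smaller gene values, to which the check was limited, 100% were whole multiples of 1 read within a tolerance of 0.05 of a read. Larger values were rounded to whole reads without that check. With edgeR 4.0.16 on these counts 6920 genes were called higher and 9164 lower. A read that touches several bins or overlapping genes is counted in each, and depth is given on that basis.

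Values were divided by the library's median tested gene (TEs: median family). log2 of the value plus 0.1 was fitted with limma 3.58.1 in R 4.3.3 over all 24 LAP2B libraries in 8 groups, LBRKO libraries included. LMNB1 and IGG libraries were fitted apart from them. A share of 0.1 of genes, those lowest in mean, was left out, so 70381 of 78202 were tested, and 78131 had GENCODE coordinates. For the spike-in scale, 0.1 of the median over all genes and LAP2B libraries was added. Measures per library were compared by exact two-sided permutation. Named by rule were the 10 largest rises and falls, and 5 genotype differences each way, among called, non-overlapping protein-coding genes of at least 10 bins and 1 Mb apart, and all called list members. For TE families the rule took the 10 largest rises and falls among called families of at least 100 copies. Other genes, and the windows, are named as list members or for their values. The members and lists were chosen with earlier results of these data known. Scripts were tested on simulated data, where limma called 18% of 1.5-fold and 72% of 2-fold changes. It called 100% of 3-fold and 4-fold ones, with 12 false calls among 70408 genes. A difference that did not pass is therefore not shown to be absent. Alternatives were other pseudocounts, no filter, genes of at least 10 kb, TKO libraries alone, other centring, edgeR, a replicate block and leaving out each library. The deposited modified z-scores were not used, and 2 H3K9me3 samples were not analysed here. Some genes of the lists are counted but not reported singly here.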

Additional observations from a re-analysis of the deposited data

Results flagged for a closer look

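The stage difference itself differed between genotypes by the test of the difference in limma (Benjamini-Hochberg adjusted p under 0.05) for the following. Against WT it was higher in TKO for 3720 genes and lower for 2903, and against QKO higher for 9141 and lower for 9764. With libraries centred on their mean gene the counts against WT were 1165 higher and 6098 lower, so the balance of directions against WT turned. The counts against QKO are given for centring on the median gene only. Among TE families it was higher for 25 and lower for 200 against WT, a balance that also turned when libraries were centred on genes.

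Among the genes named, those with a more positive log2 difference in TKO than in WT were Gp2 (1.39), Ces1b (1.35), Spmip5 (1.35), Plekha1 (1.34), Usp31 (1.30), Pnliprp1 (1.20), T (1.06), Krt20 (1.01), Opcml (0.70), Mael (0.65), Fgf5 (0.63), Fgfr2 (0.61), Airn (0.59), Igf2r (0.58), Zfp644 (0.55) and Ehmt1 (0.45). Of these T, Krt20, Mael, Fgf5, Igf2r, Zfp644 and Ehmt1 were lost in at least 1 fit without a library. These 7 and Airn were also lost with libraries centred on their mean gene.

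Those with a more negative difference were Egr1 (-1.59), Anxa9 (-1.56), Rbbp7 (-1.40), Tmem91 (-1.39), Dppa5a (-1.39), Hsd17b14 (-1.38), Ulk1 (-1.38), Dusp6 (-1.35), Klf2 (-1.33), Lmna (-1.24), Uhrf1 (-1.13), Zic2 (-1.06), Trim28 (-0.98), Zfp42 (-0.97), Etv5 (-0.97), Tfcp2l1 (-0.96), Atp5pf (-0.90), Spry2 (-0.86), Tceanc (-0.83), Klf5 (-0.75), Prdm14 (-0.70), Esrrb (-0.57), Tet2 (-0.47) and Morc1 (-0.42). Of these Lmna, Atp5pf, Spry2, Klf5, Prdm14, Tet2 and Morc1 were lost in at least 1 fit without a library, and Lmna was at -0.63 (adjusted p = 0.117) without TKO naive replicate 1.

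Among TE families, L5 (0.22) and Tigger23a (0.21) were higher in TKO, the second of them lost in 7 of 12 fits without a library. RLTR13B2 (-0.83), RLTR13D6 (-0.60), RLTR9E (-0.60), RLTR13E (-0.59), LTRIS2 (-0.56), ERVB2_1A-I_MM (-0.52), RLTR9D (-0.44), RLTR9D2 (-0.43), RLTR13D4 (-0.36) and RLTR13B1 (-0.30) were lower.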

How the results depend on the processing

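Replicate numbers did not pair TKO libraries (correlations of same-numbered deviations -0.022, 0.015 and 0.0003), and with a replicate block 16742 genes were called on the relative scale, 22483 on the spike-in scale, 6513 between TKO and WT and 18803 between TKO and QKO. For TE families the block gave 578 calls, 231 between TKO and WT, and 18 on the spike-in scale. The spike-in gene count was 14865 for genes of at least 10 kb and 5976 with the TKO libraries alone. Centring TE families on genes gave 269 calls and 852 between genotypes. Spearman's rho with LMNB1 not divided by bins differed by 0.034. With a pseudocount of 0.5 the medians of classes 1 and 2 were 0.21 and 0.11, of chromosome 8 0.0595 and of chromosome X -0.16, which was -0.14 with no filter. By edgeR classes 2, 3 and 4 were at 0.11, -0.084 and -0.39, and chromosomes 8, X and Y at 0.0321, -0.38 and -0.17. Genes of at least 10 kb gave 0.14 for chromosome 8 and -0.11 for Y. Without 1 library the ranges were 11805 to 17465 genes, 9279 to 32699 on the spike-in scale, 3858 to 7434 between TKO and WT, 465 to 592 TE families, 4 to 1037 on the spike-in scale and 145 to 266 between genotypes, where the lowest counts were without WT naive replicate 2, TKO naive replicate 3 or WT EpiLC replicate 3. The median of class 3 ran from -0.025 to 0.010, above 0 without TKO EpiLC replicate 1. Protocadherin falls ran from 8 to 22 and germline rises from 5 to 7. The cause of these shifts was not tested. Of 125 stage differences of called list members and of genes and families named by rule, 39 were lost in at least 1 fit without a library, and of 53 between genotypes 15. With no filter on low values 20 such stage differences of genes were lost and 85 kept, and 7 between genotypes were lost and 34 kept. By edgeR 12 and 1 were lost, and with mean-gene centring 2 and 8. The shallowest TKO LAP2B library, naive replicate 2, held 12608484 reads over genes.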
